A study of Mus musculus with 8 samples.

Results

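The genes described are the ligands and receptors of the VEGF and angiopoietin systems in kidney: the ligands Vegfa, Vegfb, Vegfc and Pgf, their receptors Flt1 (VEGFR1), Kdr (VEGFR2) and Flt4 (VEGFR3), the receptor Tek (Tie2) and its ligands Angpt1 and Angpt2. They were chosen by name and not by a filter on their values, though earlier results of these data were known. Their features are those of a mouse two-colour array that carry 1 of these 10 symbols. This gave 21 features of 33026 with a gene symbol and 10 genes of 22485, and all 21 features had enough values to be tested. Kdr was printed as 11 features and Vegfa as 2, while each of the other 8 genes had a single feature.

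Kidneys were taken from 129/SvJ male mice of 10 weeks. The +/- mice carried 1 null and 1 floxed allele of Sdhd, which encodes a membrane anchor subunit of mitochondrial complex II (succinate dehydrogenase), and no recombinase. The SDHD-ESR mice carried the same 2 alleles together with a Cre recombinase that tamoxifen activates. Per the labels tamoxifen was given to all of them, the +/+ mice of the pool included, at 100 µg/g on each of 4 days starting at 9 weeks of age, and the kidneys were taken 1 week after the injections began. Each array compared pooled RNA of 2 mice, in Cy5, with a common pool of RNA from 8 +/+ littermates, in Cy3, and the dyes were not swapped. By the study's definition, +/+ mice carried 1 floxed and 1 wild-type allele of Sdhd and no recombinase. There were 4 arrays of +/- and 4 of SDHD-ESR kidneys. Cre and the loss of Sdhd came together, so their parts cannot be told apart, and the promoter that drives the Cre is not given in the sources used here. In a piece of whole kidney, fewer cells of a type and less RNA per cell cannot be told apart either.

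All values are log2 ratios to the +/+ pool, and each array was centred on the median of its features. After centring, 0 is the median ratio of an array and not the measured level of the pool. Above or below the pool thus means above or below that median, except where values without centring are given. The sign of the deposited ratios was turned on every array, since as deposited the targeted gene Sdhd was higher than the pool on each of the 8 arrays. All directions below rest on that choice and would flip together without it. After turning, Sdhd was -0.76 ± 0.25 in +/- and -4.05 ± 0.78 in SDHD-ESR (mean ± SD, n = 4 arrays each), a difference of -3.29 ± 0.37 (SE, exact permutation p = 0.0286, adjusted p = 0.105 by limma). The arrays were not scaled alike as deposited, with medians between -0.19 and 0.94, and those of SDHD-ESR were on average 0.26 higher than those of +/-. Centring removed that shift, so that a difference of 0 here means a change like that of the median gene. The kidney label could not be checked against levels, as the values are ratios to kidney RNA, and 8 of 9 proximal tubule markers lay within 0.01 of 0 on 2 or more arrays as deposited, as saturated spots would. None of the VEGF and angiopoietin features lay so close to 0 that often.

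Vascular endothelial growth factors are secreted proteins that bind receptor tyrosine kinases on endothelial cells and act on growth, survival and permeability of vessels. In the kidney, podocytes and tubule cells make Vegfa, and the glomerular and peritubular capillaries carry Kdr and Flt1. Angpt1, made largely by mural and mesenchymal cells, activates Tek on endothelial cells and stabilizes vessels, whereas Angpt2, released by the endothelial cells themselves, often opposes it. Vegfa is a classic target of the hypoxia-inducible factors (HIF), which succinate, the substrate of complex II, can stabilize by inhibiting prolyl hydroxylases.

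The sequences before the transcription starts of the 3 receptors with the lowest values in SDHD-ESR are shown first, beside those of Flt1, a receptor without such a difference, and of Vegfa. They are the 250 bases before the start in RefSeq (build GRCm38.p6, 5′ to 3′ on the strand of the gene), in which 8 of the 10 genes were matched, without Angpt1 and Angpt2. Capitals mark matches, on either strand, to ACGTG (the core bound by HIF), CAGGAA (bound by ETS factors), AGATAA (bound by GATA factors) and GGGCGG (the GC box bound by Sp1), the last added after few matches to the others were seen.
Kdr, chr5:75978456-75978705, strand -: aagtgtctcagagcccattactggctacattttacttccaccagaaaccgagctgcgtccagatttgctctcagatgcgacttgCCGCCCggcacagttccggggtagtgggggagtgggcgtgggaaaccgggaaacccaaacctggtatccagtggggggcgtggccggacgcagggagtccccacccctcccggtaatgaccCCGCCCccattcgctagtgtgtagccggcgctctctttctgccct
Flt4, chr11:49609429-49609678, strand +: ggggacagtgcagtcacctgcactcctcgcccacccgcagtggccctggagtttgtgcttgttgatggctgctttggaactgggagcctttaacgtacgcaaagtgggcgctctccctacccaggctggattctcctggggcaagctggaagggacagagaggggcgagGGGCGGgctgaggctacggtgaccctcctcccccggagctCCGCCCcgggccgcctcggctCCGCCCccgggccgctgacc
Tek, chr4:94739039-94739288, strand +: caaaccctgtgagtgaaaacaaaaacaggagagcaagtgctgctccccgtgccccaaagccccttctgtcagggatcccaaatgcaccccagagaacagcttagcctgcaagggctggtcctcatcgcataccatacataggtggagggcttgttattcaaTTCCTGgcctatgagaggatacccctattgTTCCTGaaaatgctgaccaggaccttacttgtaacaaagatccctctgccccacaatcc
Flt1, chr5:147726012-147726261, strand -: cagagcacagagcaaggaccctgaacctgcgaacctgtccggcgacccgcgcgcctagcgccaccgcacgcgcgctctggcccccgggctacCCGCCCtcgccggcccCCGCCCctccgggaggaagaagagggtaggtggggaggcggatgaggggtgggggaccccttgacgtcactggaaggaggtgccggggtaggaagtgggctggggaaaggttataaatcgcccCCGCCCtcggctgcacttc
Vegfa, chr17:46032378-46032627, strand -: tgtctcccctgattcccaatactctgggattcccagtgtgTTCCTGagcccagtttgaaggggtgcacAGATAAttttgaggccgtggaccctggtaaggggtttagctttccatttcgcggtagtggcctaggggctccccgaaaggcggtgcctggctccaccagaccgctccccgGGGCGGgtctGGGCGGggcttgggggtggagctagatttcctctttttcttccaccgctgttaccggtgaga
Tek held 2 matches to CAGGAA and no GC box, Kdr held 2 GC boxes, and Flt4 and Flt1 held 3 each. Vegfa held 2 GC boxes, 1 match to the ETS letters and 1 to the GATA letters. The HIF core was in none of these 5 windows. Vegfa has another start in RefSeq, which lies downstream of the first and inside the gene. The 250 bases before it (chr17:46025164-46025413, strand -), which are thus also inside the gene, held 1 match to the HIF core and 1 GC box. Over the 32851 windows of this kind, 16.6% held ACGTG, 25.7% CAGGAA, 9.99% AGATAA and 32.7% GGGCGG, so matches of this kind were frequent among all genes. A match is not a measured binding site, and the absence of one says only that these letters are not in the window.

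Across the 10 genes, the receptors Kdr, Flt4 and Tek and the ligand Angpt1 were lower in SDHD-ESR than in +/- kidneys on every array, to between 0.589 and 0.769 of the +/- level. The other VEGF receptor, Flt1, the 4 VEGF ligands and Angpt2 overlapped between the groups. By limma, 4 of the 10 genes were lower at an unadjusted p under 0.05, against 3.75% of the 20462 genes tested, and none was higher, against 3.96%. After Benjamini-Hochberg adjustment over all genes none of the 10 passed, and of all genes 0.00489% were lower and 0.00977% higher. The same 4 genes had groups that did not overlap, which 2.78% of all genes showed in this direction and 2.84% in the other, where none of the 10 lay. The median difference of the 10 genes was -0.10, against 0.01 over all genes. These 4 results rested on the scaling of the arrays: without centring none of the 10 genes was lower at an unadjusted p under 0.05, the median was 0.16 beside 0.27 for all genes, and only 0.239% of all genes were lower and 3.65% higher.

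**Figure D1:**
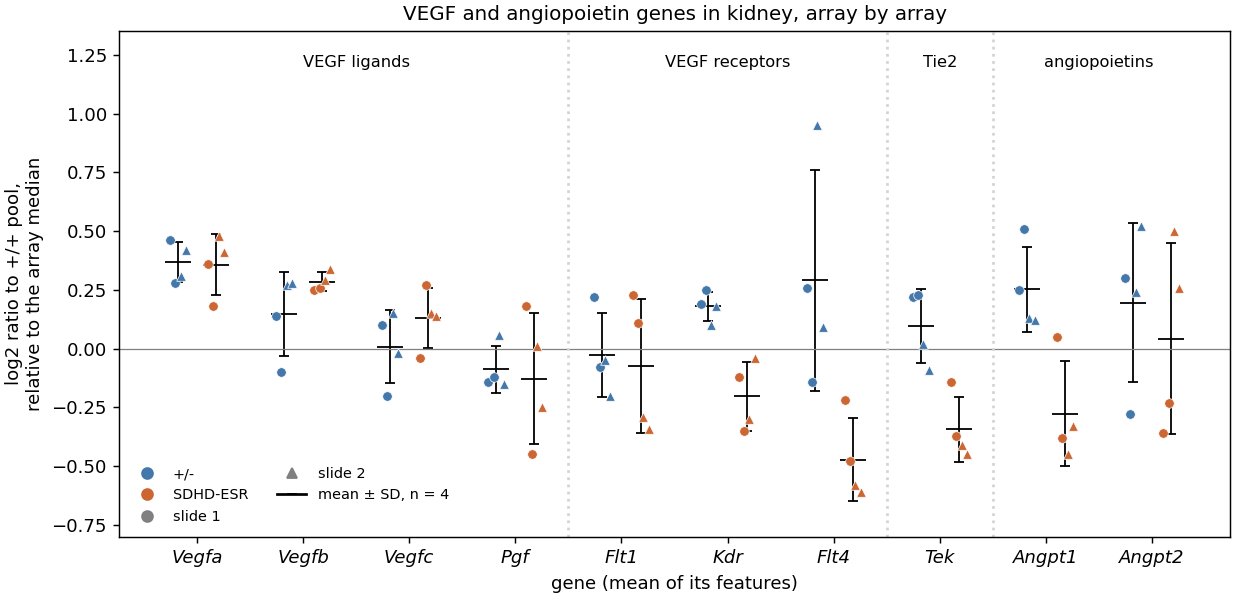
Log2 ratio to the +/+ pool, relative to the array median (vertical axis), for each of the 10 genes (horizontal axis, grouped by role) on 4 +/- arrays (blue) and 4 SDHD-ESR arrays (orange). Circles are slide 1, triangles slide 2, and bars the mean ± SD of 4 arrays. The groups lie apart for Kdr, Flt4, Tek and Angpt1 and overlap for the other 6 genes.

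Among the ligands, Vegfa, the main growth factor of the renal capillaries, had ratios of 0.46, 0.28, 0.31 and 0.42 on the 4 +/- arrays and of 0.36, 0.18, 0.48 and 0.41 on the 4 SDHD-ESR arrays. All 8 values were above the pool, and the groups overlapped over most of their range. Their means were 0.37 ± 0.09 and 0.36 ± 0.13 (SD, n = 4), a difference of -0.01 ± 0.09 (SE) with a 95% interval of -0.22 to 0.21 (two-sided exact permutation p = 0.9714). On the linear scale that interval runs from 0.856 to 1.15 times the +/- level. The direction of Vegfa against the pool is opposite to that in the study's own table of hypoxia genes, because of the turned sign. For Sdhd in SDHD-ESR kidney, however, the study reports a fall, as the turned sign has it. Its log ratio rounds to -3.74, the value found here for Sdhd after turning and without centring. The signs that the study prints for Vegf and for Sdhd thus correspond to opposite choices here. Against the pool, Vegfa was 1.29-fold higher in +/- (adjusted p = 0.0155 by limma) and 1.28-fold higher in SDHD-ESR (adjusted p = 0.0108). Both calls were lost without centring, at adjusted p = 0.521 and 0.118, and the call in +/- was also lost without +/- replicate 1 (0.0513) or replicate 4 (0.057). The pool is 1 sample, so its own spread is not part of these tests. Of the 10 genes, Vegfa alone passed above the pool in +/-, where 11.1% of all genes did, and none passed below it, where 6.24% did.

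Vegfb, a ligand of Flt1 linked to fatty acid uptake and tissue survival, read 0.14, -0.10, 0.27 and 0.28 in +/- and 0.25, 0.26, 0.29 and 0.34 in SDHD-ESR. The SDHD-ESR arrays lay close together and within or just above the range of the +/- arrays. The difference was 0.13 ± 0.10 (95% interval -0.10 to 0.37, exact permutation p = 0.2286). Against the pool Vegfb was 1.22-fold higher in SDHD-ESR (adjusted p = 0.0289) and 1.11-fold in +/- (adjusted p = 0.175). That call did not hold when any single SDHD-ESR array was left out, with adjusted p between 0.0666 and 0.0858. With Vegfa it made 2 of the 10 genes above the pool in SDHD-ESR, where 16.0% of all genes were.

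Vegfc, the lymphatic growth factor that binds Flt4, read 0.10, -0.20, 0.15 and -0.02 in +/- and -0.04, 0.27, 0.15 and 0.14 in SDHD-ESR. The groups overlapped, with a difference of 0.12 ± 0.11 (95% interval -0.13 to 0.38, exact permutation p = 0.2857). Pgf, placental growth factor, which binds Flt1, read -0.14, -0.12, 0.06 and -0.15 in +/- and 0.18, -0.45, 0.01 and -0.25 in SDHD-ESR. The SDHD-ESR arrays were spread on both sides of the +/- arrays, and the difference was -0.04 ± 0.15 (95% interval -0.38 to 0.30, exact permutation p = 0.8).

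Of the VEGF receptors, Kdr, the main signalling receptor for Vegfa on endothelial cells, had 11 features, so each of its values is a mean over them. The mean of its features was 0.19, 0.25, 0.10 and 0.18 in +/- and -0.12, -0.35, -0.30 and -0.04 in SDHD-ESR. After centring, every +/- array was above 0 and every SDHD-ESR array below it. Without centring, +/- replicate 1 read -0.01, while SDHD-ESR replicates 3 and 4 read 0.08 and 0.90. The means were 0.18 ± 0.06 and -0.20 ± 0.15 (SD, n = 4), a difference of -0.38 ± 0.09 (95% interval -0.60 to -0.16), or 0.769 of the +/- level. The exact permutation p was 0.0286, the smallest that 4 against 4 arrays allow, and the adjusted p by limma was 0.462. Slide 1 alone gave -0.45 and slide 2 alone -0.31, and the difference stayed between -0.43 and -0.33 when single arrays were left out. Of all genes, 8.65% had a lower difference. Without centring the difference was -0.12 and the groups overlapped, with -0.29 on slide 1 and 0.05 on slide 2.

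The 11 Kdr features share 1 transcript accession and were hybridised to the same 8 pairs of RNA pools, so they show how well the array measures Kdr and not how much mice differ. Of these features, 10 agreed closely: on a given array their SD was between 0.05 and 0.10, and each had a difference between -0.48 and -0.31. Their unadjusted p lay between 0.000838 and 0.0278 and their adjusted p between 0.334 and 0.639. The remaining feature stood apart, with values between -0.17 and 0.08 on all 8 arrays and a difference of 0.01 (unadjusted p = 0.942). Probe sequences were not compared, so whether the feature that stood apart carries the same probe as the other 10 is not known here. Without that feature, a choice made after its values were seen, the mean of the other 10 gave a difference of -0.42, or 0.749 of the +/- level. Counted by features, 13 of the 21 were lower at an unadjusted p under 0.05, against 3.34% of the 39253 features tested, and 10 of these 13 were Kdr.

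**Figure D2:**
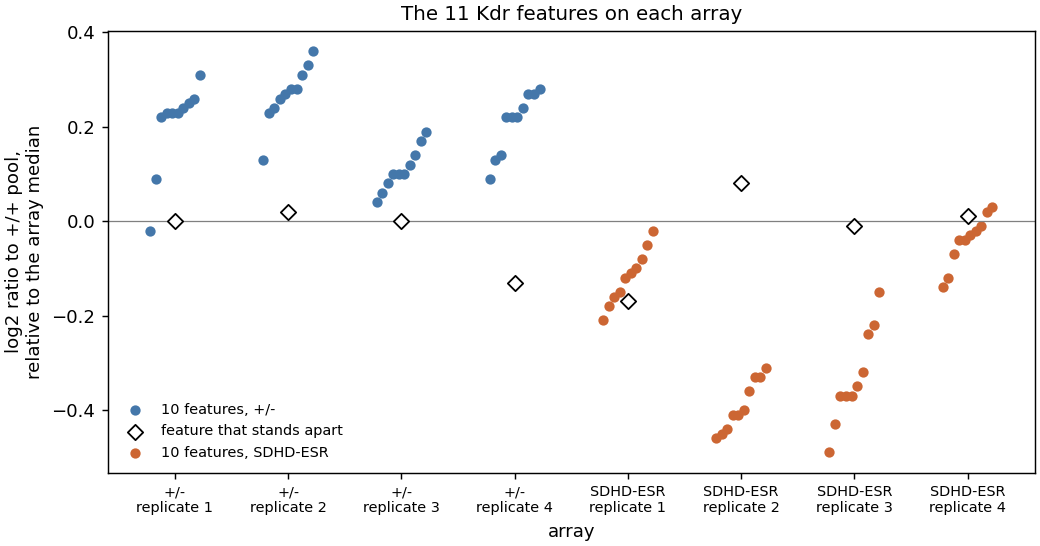
Log2 ratio to the +/+ pool, relative to the array median (vertical axis), of the 11 Kdr features on each of the 8 arrays (horizontal axis). Filled points are 10 features ordered by value, blue for +/- and orange for SDHD-ESR, and the open diamond is the feature that stands apart, which stays between -0.17 and 0.08 while the 10 others sit lower on the SDHD-ESR arrays.

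Flt4, the receptor for Vegfc on lymphatic endothelium and some fenestrated capillaries, read 0.26, -0.14, 0.95 and 0.09 in +/- and -0.22, -0.48, -0.58 and -0.61 in SDHD-ESR. All SDHD-ESR arrays lay below all +/- arrays, and +/- replicate 3 was far above the others. The means were 0.29 ± 0.47 and -0.47 ± 0.18 (SD, n = 4), a difference of -0.76 ± 0.23 (95% interval -1.31 to -0.22), or 0.589 of the +/- level. The exact permutation p was 0.0286 and the adjusted p 0.547. It was the least even of the 4, at -0.41 on slide 1 and -1.12 on slide 2, and leaving out single arrays moved it between -0.91 and -0.54. Without centring it was -0.50 and the groups overlapped. Of all genes, 2.97% had a lower difference. Of 6 other markers of lymphatic endothelium, 3 were higher and 3 lower, with a median difference of 0.06. Their mean ratio ranged from -0.39 to -0.05 in +/- and from -0.28 to 0.04 in SDHD-ESR. Among them Mmrn1, multimerin 1, differed by 0.61 ± 0.24 in the upward direction (unadjusted p = 0.0345, adjusted p = 0.611).

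Flt1, a receptor that binds Vegfa tightly and in its soluble form traps it, read 0.22, -0.08, -0.05 and -0.20 in +/- and 0.23, 0.11, -0.29 and -0.34 in SDHD-ESR. Within SDHD-ESR both arrays of slide 1 were above both of slide 2, and the groups overlapped. The difference was -0.05 ± 0.16 (exact permutation p = 0.8571), and its 95% interval of -0.43 to 0.34 holds the value found for Kdr.

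Of the Tie2 system, Tek, the receptor that keeps vessels quiescent, read 0.22, 0.23, 0.02 and -0.09 in +/- and -0.14, -0.37, -0.41 and -0.45 in SDHD-ESR. The groups lay apart by a small gap between +/- replicate 4 and SDHD-ESR replicate 1. The means were 0.09 ± 0.16 and -0.34 ± 0.14 (SD, n = 4), a difference of -0.43 ± 0.11 (95% interval -0.69 to -0.17), or 0.741 of the +/- level. The exact permutation p was 0.0286 and the adjusted p 0.47. Both slides gave close values, -0.47 and -0.39, and leaving out single arrays moved the difference between -0.50 and -0.39. Without centring it was -0.17, with -0.31 on slide 1 and -0.03 on slide 2. Of all genes, 7.26% had a lower difference. Tek was also the one gene of the 10 that passed below the pool in SDHD-ESR, at 0.79-fold (adjusted p = 0.022), where 8.18% of all genes passed, while in +/- it read 0.09 above the pool (adjusted p = 0.43). That call was lost without SDHD-ESR replicate 2 (adjusted p = 0.0662), 3 (0.0678) or 4 (0.0724), with quantile normalization (0.188) and without centring (0.93).

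Angpt1, the activating ligand of Tek, read 0.25, 0.51, 0.13 and 0.12 in +/- and 0.05, -0.38, -0.45 and -0.33 in SDHD-ESR. After centring, all +/- arrays lay above 0, and SDHD-ESR replicate 1 was the only SDHD-ESR array that did. Without centring, SDHD-ESR replicate 4 lay above 0 as well, at 0.61. The means were 0.25 ± 0.18 and -0.28 ± 0.22 (SD, n = 4), a difference of -0.53 ± 0.14 (95% interval -0.86 to -0.20), or 0.693 of the +/- level. The exact permutation p was 0.0286 and the adjusted p 0.495. The slides gave -0.55 and -0.51, and single arrays left out moved the value between -0.64 and -0.44. Without centring it was -0.27, with -0.38 and -0.15 on the slides, and the groups overlapped. Of all genes, 5.56% had a lower difference. Angpt2, the context-dependent antagonist of Tek, read 0.30, -0.28, 0.24 and 0.52 in +/- and -0.36, -0.23, 0.50 and 0.26 in SDHD-ESR. Its arrays varied widely within both groups, and the difference of -0.16 ± 0.24 had a 95% interval of -0.73 to 0.42 (exact permutation p = 0.6286).

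**Figure D3:**
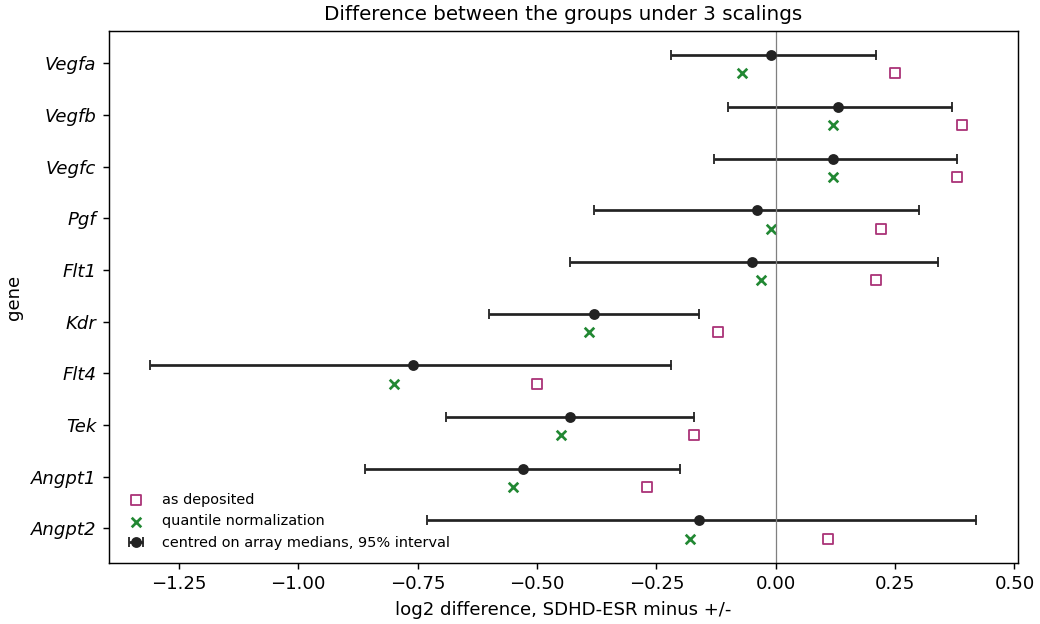
Log2 difference of SDHD-ESR minus +/- (horizontal axis) for each of the 10 genes (vertical axis) under 3 scalings. Black points are arrays centred on their medians with the 95% interval of limma, green crosses quantile normalization and open squares the values as deposited, which sit about 0.26 to the right, at -0.12 for Kdr, -0.50 for Flt4, -0.17 for Tek and -0.27 for Angpt1.

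Quantile normalization between the arrays, another scaling, gave -0.39 for Kdr, -0.80 for Flt4, -0.45 for Tek and -0.55 for Angpt1. Their unadjusted p by limma were 0.00406, 0.0234, 0.00525 and 0.0105, so these 4 genes were lower with either way of bringing the arrays to a common scale. Quantile normalization also gives the arrays a common median, so it cannot tell whether the shift between them should be removed.

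Kdr, Tek and Flt4 are transcribed mainly in endothelial cells, so 17 other endothelial genes were read beside them. Of these, 13 were lower in SDHD-ESR and 4 higher, with a median difference of -0.16, beside 0.01 for all genes. The mean ratio of the list ranged from -0.07 to 0.15 on the +/- arrays and from -0.21 to -0.04 on the SDHD-ESR arrays. At an unadjusted p under 0.05, 5 were lower and 0 higher, against 3.75% and 3.96% of all genes, and none passed the adjusted threshold by limma. Those 5 were Robo4, a receptor that guards vessel integrity, at -0.34 ± 0.08 (adjusted p = 0.462), Ecscr, which modulates endothelial migration, at -0.46 ± 0.14, Cdh5 (VE-cadherin), the adhesion molecule of endothelial junctions, at -0.36 ± 0.11, Icam2 at -0.37 ± 0.12 and Emcn, a sialomucin of capillaries, at -0.39 ± 0.15. Robo4 read 0.20, 0.12, -0.02 and 0.15 in +/- and -0.19, -0.17, -0.23 and -0.33 in SDHD-ESR, so its groups did not overlap. Other defining markers gave differences near or above 0: Pecam1 0.02 ± 0.11, Cldn5, a tight junction protein, 0.18 ± 0.18, and Vwf, von Willebrand factor, 0.11 ± 0.11. Without centring the median of the list was 0.10 and none was lower at an unadjusted p under 0.05.

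The members were next taken relative to the mean of the endothelial list on each array, a comparison added after the data had been seen, in which the scaling between arrays cancels. That mean differed by -0.16. Relative to it, Tek differed by -0.27 and Angpt1 by -0.37, each with groups that did not overlap (exact permutation p = 0.0286 each). Kdr differed by -0.22 (exact permutation p = 0.0857) and Flt4 by -0.60 (0.0571), and their groups overlapped. The median over the 10 genes was 0.06. The part of endothelial content in the differences of the receptors was not tested.

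**Figure D4:**
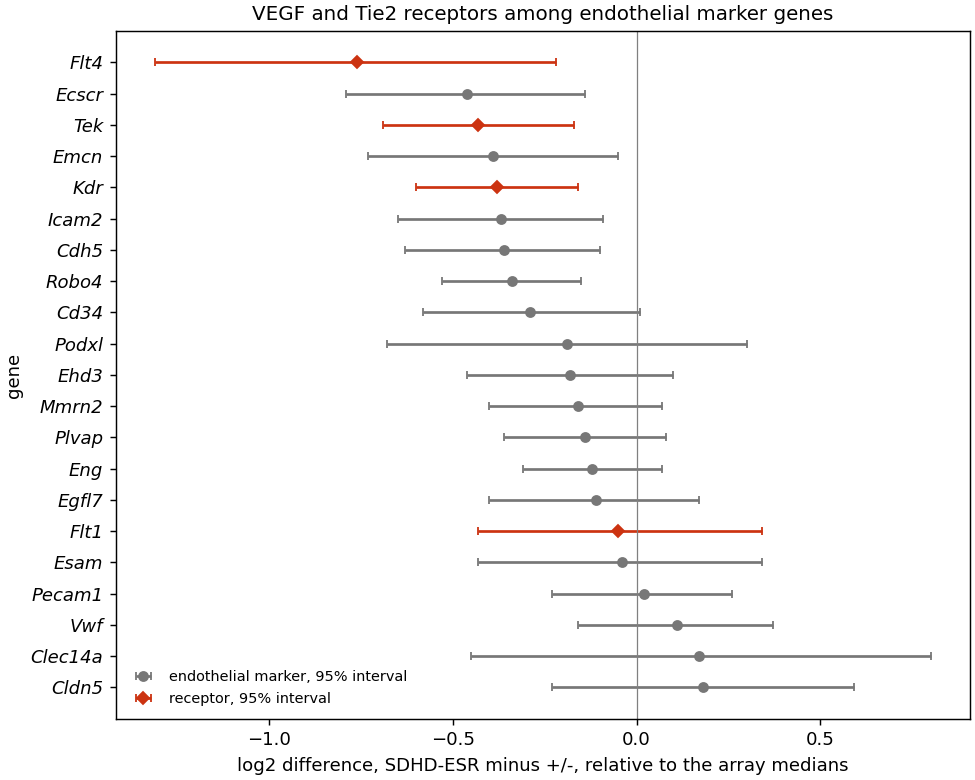
Log2 difference of SDHD-ESR minus +/- relative to the array medians (horizontal axis), with 95% intervals of limma, for the 17 endothelial markers (grey circles) and the receptors Flt1, Kdr, Flt4 and Tek (red diamonds), ordered by value (vertical axis). Tek at -0.43 and Kdr at -0.38 lie among the lower markers, such as Ecscr at -0.46 and Cdh5 at -0.36, and Flt1 at -0.05 among the higher ones. Flt4 at -0.76 lies below all the markers.

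Mural cells and podocytes are the usual sources of Angpt1 and of glomerular Vegfa. Of 8 measured markers of pericytes and smooth muscle, 4 were higher and 4 lower (median 0.00). At an unadjusted p under 0.05, 2 of the 8 were lower, where 3.75% of all genes were. Those 2 were Pdgfrb, the pericyte receptor for PDGF, at -0.37 ± 0.15, and the smooth muscle protein Tagln at -0.43 ± 0.18. The mean of that list ranged from -0.29 to 0.09 in +/- and from -0.46 to 0.03 in SDHD-ESR. All 7 measured podocyte markers had a negative difference, with a median of -0.04, and none passed an unadjusted p of 0.05. Their mean ranged from 0.02 to 0.23 in +/- and from -0.14 to 0.27 in SDHD-ESR. Without centring 1 of the 7 podocyte markers was lower, and their median was 0.22, beside 0.27 for all genes. The part of these cells in the values of Angpt1 and Vegfa was not tested.

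The remaining genes of the pathway were read from lists made by role, with earlier results of these data known. None of them passed the adjusted threshold by limma. The 13 partners (other ligands, co-receptors and receptor regulators) had a median of -0.02. At an unadjusted p under 0.05, 2 of them were lower and 0 higher, against 3.75% and 3.96% of all genes. That count was 0 without centring or without +/- replicate 1, and 1 when +/- replicate 2, 3 or 4 or SDHD-ESR replicate 2 or 3 was left out. Svep1, an extracellular matrix protein that binds Tie1, read 0.30, 0.19, -0.03 and 0.05 in +/- and -0.29, -0.68, -0.20 and -0.06 in SDHD-ESR, a difference of -0.44 ± 0.15 (adjusted p = 0.576). Its groups lay apart by a narrow gap, with -0.73 on slide 1 alone and -0.14 on slide 2 alone. Nrp2, a co-receptor for Vegfc, differed by -0.23 ± 0.09 (adjusted p = 0.609), and without centring by 0.03. Plcg1, the phospholipase that Kdr activates, differed by 0.19 ± 0.08 (unadjusted p = 0.0582). Its SDHD-ESR arrays all lay above its +/- arrays (exact permutation p = 0.0286). Of 11 measured inhibitors of VEGF or angiogenesis, 1 was higher at an unadjusted p under 0.05 and 0 were lower (median 0.06). It was Angptl1, an angiopoietin-like protein, with values of -4.61, -2.65 and -1.48 on +/- replicates 1 to 3 and of -0.16, 0.73 and -0.41 on SDHD-ESR replicates 1, 3 and 4, the other 2 arrays having no usable value. Its difference was 2.97 ± 0.84 (adjusted p = 0.547), and an exact permutation test over 3 against 3 values gave its smallest p, 0.1.

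Among 17 measured genes known to respond to VEGF or to the transcription factor FOXO1 in endothelium, 13 were lower and 4 higher, with a median of -0.21. Without centring 7 of the 17 were lower, and the median was 0.05, beside 0.27 for all genes. In the centred values, 1 was lower and 1 higher at an unadjusted p under 0.05, against 3.75% and 3.96% of all genes. The lower one was Esm1, which encodes endocan, an endothelial proteoglycan that VEGF signalling raises. Esm1 read 0.67, 0.75, -0.03 and 0.09 in +/- and -0.66, -0.69, -0.68 and -0.28 in SDHD-ESR. The groups lay apart, and within +/- the arrays of slide 1 were well above those of slide 2. The difference was -0.95 ± 0.21 (95% interval -1.44 to -0.46), or 0.517 of the +/- level, with an adjusted p of 0.391 and an exact permutation p of 0.0286. It was -1.39 on slide 1 and -0.51 on slide 2, and -0.69 without centring. The higher one was Icam1, a leukocyte adhesion molecule, at 1.01 ± 0.40 (adjusted p = 0.619), where +/- replicate 1 read -2.10 and the other +/- arrays between -0.55 and -0.10. Leaving out single arrays moved the difference of Icam1 between 0.59 and 1.25. With all arrays its groups did not overlap (exact permutation p = 0.0286). Dll4, a Notch ligand of tip cells, differed by -0.42 ± 0.19 (unadjusted p = 0.067).

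Of 10 transcription factors of endothelial genes (median -0.11), 1 was lower and 0 were higher at an unadjusted p under 0.05. Of all genes, 3.75% were lower and 3.96% higher. The lower factor was Ets1, at -0.27 ± 0.10 (adjusted p = 0.594), with -0.45 on slide 1, -0.09 on slide 2 and -0.01 without centring. Of 20 other vascular ligands and receptors, 10 were higher and 10 lower (median 0.00). At an unadjusted p under 0.05, 1 was higher and 1 lower, the lower being Pdgfrb. The higher was Edn1, the vasoconstrictor endothelin 1, printed as 10 features. Its mean read -0.46, -0.72, -0.52 and -0.33 in +/- and 0.00, 0.12, 0.38 and 0.00 in SDHD-ESR. The means of the groups lay apart, with a difference of 0.64 ± 0.13 (95% interval 0.34 to 0.93, exact permutation p = 0.0286, adjusted p = 0.364), at 0.65 and 0.62 on the slides. The 10 features did not agree as those of Kdr did: their SD on an array was between 0.35 and 1.23, their differences ran from -0.22 to 1.81, and 1 of the 10 passed an unadjusted p of 0.05. With the median of the features in place of their mean, Edn1 differed by 0.30 ± 0.23 (unadjusted p = 0.232, adjusted p = 0.816).

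The regulators of Vegfa were read for the question whether the hypoxia pathway was active, which the study asked of kidneys of these mice. By RT-qPCR the study found Vegf significantly raised in SDHD-ESR kidney only at a later time than that of these arrays. It detected no Hif1α protein by western blot at either time. Of 19 measured HIF targets, 10 were higher and 9 lower, with a median of 0.01. At an unadjusted p under 0.05, 1 of them was higher, where 3.96% of all genes were. This was Pdk1, which encodes a kinase that limits the entry of pyruvate carbon into the citric acid cycle. The count was 2 without +/- replicate 4, without SDHD-ESR replicate 3 or with features near 0 left out. Pdk1 read -0.18, 0.34, -0.16 and -0.05 in +/- and 0.47, 0.77, 0.37 and 0.26 in SDHD-ESR, a difference of 0.48 ± 0.16 (adjusted p = 0.555, exact permutation p = 0.0571). The groups overlapped only through +/- replicate 2. The direction of Pdk1 against the pool in SDHD-ESR is, like that of Vegfa, opposite to that in the study's own table of hypoxia genes. The Glut1 row of that table is defined there as glucosyltransferase 1, so Slc2a1 was not compared with it. Slc2a1, the glucose transporter Glut1, differed by 0.31 ± 0.14 (unadjusted p = 0.0606), and Adm, the vasodilator adrenomedullin, by 0.21 ± 0.11 (unadjusted p = 0.1). The SDHD-ESR arrays all lay above the +/- arrays for Adm (exact permutation p = 0.0286). Of 10 regulators of Vegfa transcription, 1 was higher at an unadjusted p under 0.05, where 3.96% of all genes were. That gene, Hif3a, differed by 0.61 ± 0.22 (adjusted p = 0.589), with 1.06 on slide 1 and 0.16 on slide 2. Its 3 features gave differences from -0.27 to 1.01, and their median gave 0.47 ± 0.25 (unadjusted p = 0.0986). Epas1, which encodes HIF-2α, differed by -0.15 ± 0.07 (unadjusted p = 0.0889), and the median of the list was -0.04.

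The genes with a pattern most like that of Vegfa over the 8 arrays, among 18631 genes with values on all of them, were Cep95 (Pearson r = 0.974), L3mbtl3 (0.959) and Prickle4 (0.951), and 30 genes had an r above 0.9. For Kdr they were Gusb (0.988), Sec14l3 (0.979) and Dnajc22 (0.976), and 89 genes had an r above 0.9. The 8 arrays share the reference pool, the 2 slides and the 2 groups, so these values describe a likeness over 8 points and no more.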

How the data were processed

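RNA of +/- and SDHD-ESR kidneys was measured on 8 arrays, on 2 slides with both groups on each. The values the authors deposited are mostly log2 ratios of the channels. They were mixed with whole numbers, 9.05% of all and up to 65024 in size, which were set to missing. How the authors corrected the background or normalized the arrays was not given in the sources used here. Feature numbers of the deposited table did not match the platform, and the layout was inferred from the values: over 252 accessions with 10 or more spots, repeated spots then had an intraclass correlation of 0.86, against -0.008 for the plain numbers. The sign was turned so that Sdhd falls, and arrays were centred on their medians. In R 4.3.3, limma 3.58.1 was run without covariates on the 39253 features that had 3 or more values in each group, 34401 of them complete, and on the means of the features of each of 20462 genes, with two-sided tests, Benjamini-Hochberg adjustment over all features or genes and a threshold of 0.05. The prior degrees of freedom over features were 1.46. Each array pooled 2 mice, so p-values measure the spread between such pools. The number of arrays limits the precision. Exact permutation tests over 4 against 4 arrays cannot go below 0.0286. In simulated data of 39253 features for SDHD-ESR against +/-, limma recovered 0% of features changed by 0.5, 40% by 1 and 74.5% by 2 (log2) after adjustment, and 58.5%, 83% and 92.5% at an unadjusted p.

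The members and lists were chosen with earlier results of these data known. The text names the 10 members, Sdhd, up to 3 genes of smallest unadjusted p in each list and the 3 genes most like Vegfa and Kdr. Emcn, Icam2, Pecam1, Cldn5 and Vwf were named after their values were seen. Alternatives were the values as deposited, quantile normalization, complete features only, small whole numbers kept, features near 0 left out, slide or replicate number as a block, each slide alone, each array left out, the median of the features of a gene, and the methods' t-test. The replicate numbers were not used to pair arrays, since deviations of same-numbered arrays had r between -0.02 and 0.06.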

Additional observations from a re-analysis of the deposited data

Results flagged for a closer look

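In groups of 4 arrays, 46 in all, the highest or lowest array of 4 genes stood apart from the other 3 by more than the 95% limit of Dixon's test. Chance flags about 1 in 20 such groups. Pgf read 0.06 on +/- replicate 3, while the other +/- arrays lay between -0.15 and -0.12. Nrp2 read 0.09 on +/- replicate 1, with the 3 others at -0.02. Esm1 read -0.28 on SDHD-ESR replicate 4, above the others at -0.69 to -0.66. Icam1 read -0.07 on SDHD-ESR replicate 2, below the others at 0.26 to 0.31.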

How the results depend on the processing

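The scaling of the arrays decided the calls. With the values as deposited the count of lower genes among the 10 was 0 in place of 4, of lower features 0 in place of 13, and of lower endothelial markers 0 in place of 5 (all at unadjusted p), the median of the 10 genes was 0.16, and that of the endothelial markers 0.10. As deposited, no gene passed against the pool (0 above it in +/-, 0 above and 0 below it in SDHD-ESR), and the direction of Angpt2 (0.11), Flt1 (0.21), Pgf (0.22), Vegfa (0.25) and Nrp2 (0.03) turned. Quantile normalization gave 5 genes above the pool in +/- and 0 below it in SDHD-ESR. With slide as a block 2 were below the pool in SDHD-ESR. The replicate numbers did not pair the arrays, and a replicate block left 0 genes above the pool in +/- and 1 in SDHD-ESR, with no change in the counts of lower members (4 genes, 13 features). The median of the features of a gene in place of the mean gave 0.30 for Edn1. Relative to the endothelial mean the median of the 10 was 0.06. Leaving out single arrays moved the genes above the pool between 0 and 1 in +/- and between 1 and 2 in SDHD-ESR, and those below it in SDHD-ESR between 0 and 2. Leaving out single arrays also turned the sign of Vegfa (-0.05 to 0.05), Flt1 (-0.15 to 0.04) and Pgf (-0.15 to 0.07). The cause was not tested beyond the scaling itself. The differences of Kdr, Flt4, Tek and Angpt1 kept their direction under every alternative run, apart from Kdr on slide 2 without centring (0.05). The methods' t-test called 13 of 21 features unadjusted and 0 after Benjamini-Hochberg, and over all features 2923 and 2.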

Other observations

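Among the markers of other kidney cells, Slc12a3, the thiazide-sensitive sodium chloride transporter of the distal convoluted tubule, differed between SDHD-ESR and +/- by 0.38 ± 0.11 (unadjusted p = 0.0105, adjusted p = 0.541 by limma, exact permutation p = 0.0286). Of 9 distal nephron markers 6 were higher and 3 lower, with a median of 0.12 (0.38 without centring, beside 0.27 for all genes). Of 8 macrophage markers 2 were higher and 6 lower, with a median of -0.21 (0.05 without centring), and Adgre1 (F4/80) differed by -0.37 ± 0.17 (unadjusted p = 0.0656). The mean of the macrophage list lay below the pool on all arrays, between -0.74 and -0.34 in +/- and between -0.99 and -0.54 in SDHD-ESR. Of 6 red blood cell markers 4 lay near 0 as deposited on 2 or more arrays, like those of the proximal tubule, so that centring set their direction and none is given. The 6 fat tissue markers had a median of -0.08 and the 8 adrenal markers one of 0.16, and neither list held a gene with an unadjusted p under 0.05.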
